A study of Mus musculus with 5 samples.

Results

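A set of 106 array rows lay at least 4-fold below E2.5 (E is embryonic day) in mouse embryos of all 4 later stages studied: E4.5 and E4.75, around implantation, and then E5.5 and E6.0. They were taken from 15217 rows with a value in all 5 columns of the deposited table and were chosen by 1 rule: a log2 ratio to E2.5 at or below -2 in each of these 4 later columns, with E3.5 left free. They make up 0.697% of the rows. The base of the deposited logarithms is not given, and base 2 was assumed for all log2 ratios and folds. The rule used the values of the 4 later columns, so those values are given as a description and support nothing; the E3.5 values were not used to choose the rows. All samples were pools of whole ICR embryos that had not been treated, with no mutation or transgene named in the labels. Flushing of the oviduct gave the E2.5 embryos and flushing of the uterus the E3.5 embryos, while older embryos were cut out of the uterus. A pool held 106 embryos on average for the E2.5 reference and 61 for E3.5, and mean numbers fell from 47 to 28 and 17 over the next stages, with 19 for E6.0. The sources differ on replication: the protocol describes 3 pools per stage and the series' design text speaks of duplicates. How many pools or arrays stand behind a column is unknown here. There is 1 column of values per stage, so no ratio has a replicate error and no test was possible. In pools of whole embryos, fewer cells of a type and less RNA per cell cannot be told apart.

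E2.5 embryos are in cleavage, and by then most of the messages that the egg inherited from the mother are known to have been cleared and the embryo's own genome is active. At E3.5 the embryo is a blastocyst, with an inner cell mass and an outer trophectoderm around a cavity. It implants in the uterus around E4.5, and by E5.5 the inner cells have formed an egg cylinder of epiblast wrapped in visceral endoderm.

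Gene names need care in this table. Of the 106 members, 58 carried 1 symbol in the platform annotation, all of them different, 2 carried several symbols and 46 were unnamed. Rows that share a symbol do not follow each other here, so each symbol below is the annotation's label for a row and not an established measurement of that gene; what the labelled gene does is given as background. Members were as frequent among rows with a symbol (60 of 8430, or 0.712%) as among rows without one (46 of 6787, or 0.678%).

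The loss appeared mainly between the E3.5 and E4.5 columns and then stayed. Between these columns the way of collection also changed, from flushing to cutting embryos out of the uterus. Stage and collection cannot be told apart at this step. The median of the 106 members was -0.68 at E3.5, as a log2 ratio to E2.5, and -3.07, -3.10, -3.13 and -3.18 in the later columns in turn. Over all rows the medians lay between -0.04 and 0.08, with a spread over rows (SD) of 0.50 at E3.5 and 0.74 to 0.87 in the later columns. The members' values ran from -2.91 to 0.81 at E3.5. The lowest were -6.11, -8.63, -7.61 and -7.23 in the later columns in turn, and the highest lay between -2.027 and -2.002, at the limit. For 97 of the 106 members the largest fall was the step from E3.5 to E4.5, for 8 it was the step from E2.5 to E3.5, and for 1 the step from E4.75 to E5.5. By 1 or more, 101 members fell at that step, where 11.7% of all rows did. Over all rows the step from E3.5 to E4.5 was the largest fall in 31.8%, that from E2.5 to E3.5 in 11.8% and that from E4.75 to E5.5 in 30.7%. The rule asks for low values from E4.5 onwards, so the members' shares are partly fixed by it.

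**Figure D1:**
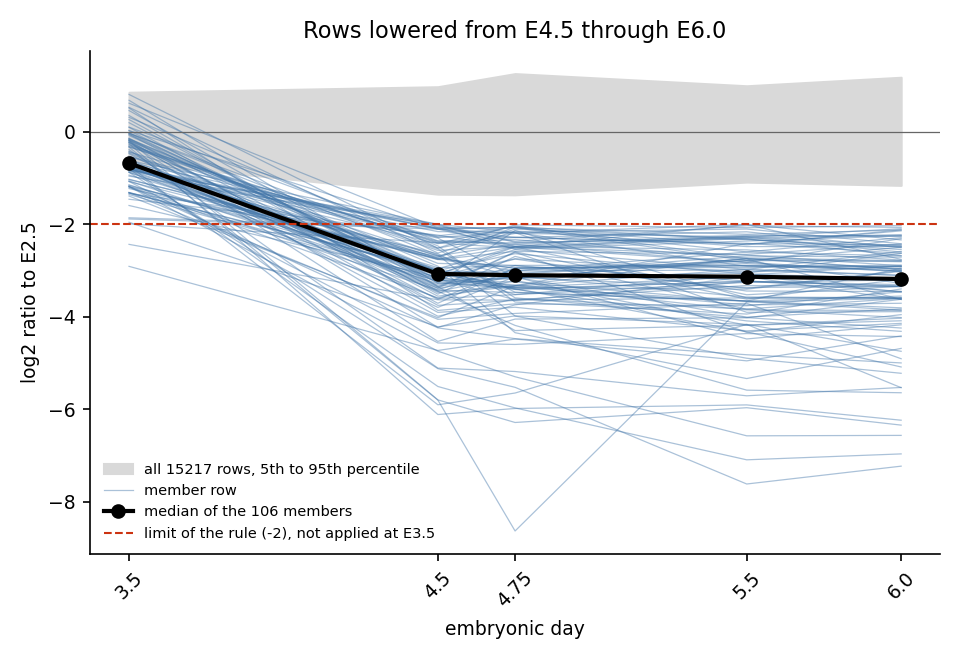
Log2 ratio to E2.5 (vertical axis) against embryonic day (horizontal axis) for each of the 106 members (thin lines), their median (black) and the 5th to 95th percentile of all 15217 rows (grey). The members' median goes from -0.68 at E3.5 to -3.07 at E4.5 and stays between -3.07 and -3.18 afterwards.

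Whether the loss had begun by E3.5 was asked of the column that the rule did not use. At E3.5, 28 of the 106 members (26.4%) were at least 2-fold lower than E2.5, where 1.73% of all rows were. At least 4-fold lower were 2 members (1.89%), where 0.217% of all rows were. A further 64 members lay between -1 and 0, and 14 lay above 0, the highest at 0.81; 92 members were below 0, where 50.6% of all rows were. No member was raised 2-fold at E3.5, where 3.35% of all rows were. All 5 columns are ratios to the same E2.5 stage, and a shared E2.5 measurement would lower a row in all of them; the labels do not say which E2.5 pools went on which array, and the part of a shared pool in the E3.5 values was not tested. The E3.5 value was a median of 21.6% of a member's mean later value on the log2 scale. This share was under 10% for 36 members, including the 14 above 0, which had no loss at E3.5. The members' median at the blastocyst stage, -0.68, was thus small beside their later loss. Within the E3.5 column it was low, since the 5th percentile of all rows there was -0.67.

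**Figure D2:**
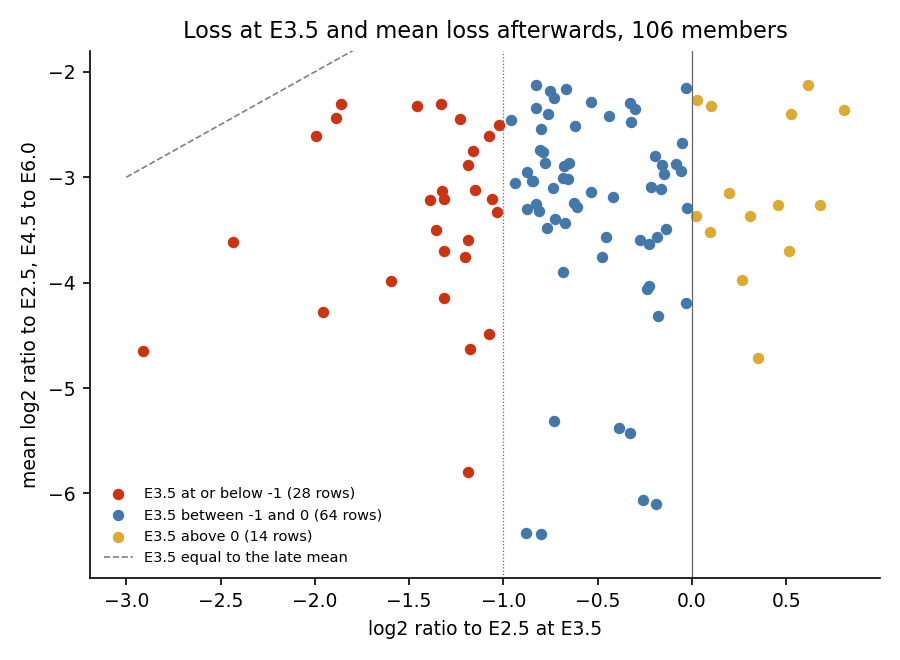
Each point is 1 member: the log2 ratio to E2.5 at E3.5 (horizontal axis) against the mean log2 ratio over the 4 later columns (vertical axis), coloured by the E3.5 value. The 28 members that were 2-fold lower at E3.5 have a median late mean of -3.21, and the 14 that were above 0 have -3.26.

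Members that were low at E3.5 did not end much lower than the others. The median of the late mean, which is the mean log2 ratio over the 4 later columns, was -3.21 for the 28 members that were 2-fold lower at E3.5. It was -3.08 for the 64 members between -1 and 0, and -3.26 for the 14 members above 0. The step from E3.5 to E4.5 had a median of -1.77, -2.57 and -3.40 in the same order; the members were split by the E3.5 value that this step subtracts, so that order follows from the split. The ranges of the late mean overlapped, from -5.79 to -2.30, from -6.38 to -2.13 and from -4.72 to -2.12.

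In 8 members the E3.5 value was at least 50% of the late mean. The row annotated Cnot7, a deadenylase that shortens the poly(A) tails of messages, read -1.86 at E3.5 and then -2.07, -2.54, -2.36 and -2.25. Its E3.5 value was 80.7% of its late mean, the largest share among the members. The row annotated Srpk1, a kinase of splicing factors, read -1.89, -2.10, -2.07, -2.79 and -2.80 in the order of the stages. These rows were almost as low at the blastocyst stage as at implantation.

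The row annotated Troap, a protein of the mitotic spindle, read -1.46 at E3.5 and -2.23, -2.52, -2.31 and -2.22 later. Unnamed row 3145 read -1.99 at E3.5, just short of the 4-fold limit, then -2.40, -2.33, -2.74 and -2.97. Together with the row annotated Ube2c, the ubiquitin-conjugating enzyme of the anaphase-promoting complex (-1.33 at E3.5 and -2.25 at E4.5), these rows make up the 5 members that fell by less than 1 from E3.5 to E4.5. The Ube2c label is given here because of that count and was chosen after its values were seen.

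The 2 members past the 4-fold limit at E3.5 were unnamed row 7853 and the row annotated AU021092. Row 7853 had the lowest E3.5 value of all members, -2.91, and read -4.73, -4.48, -4.95 and -4.41 afterwards. The row annotated AU021092 read -2.43 at E3.5 and then -3.63, -3.64, -3.59 and -3.61. Its 4 later values lay within 0.048 of each other, the smallest span of the 106 members. The other member of the 8, row 7987, carries several symbols and read -1.23 at E3.5.

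Further rows among the lowest at E3.5 went on falling. The row annotated Cenpu, a kinetochore protein, read -1.96 at E3.5 and -4.22, -3.98, -4.16 and -4.75 later. Unnamed row 7279 read -1.59, -3.14, -3.39, -4.32 and -5.08, lower in each column than in the one before. Both rows thus combined an early fall with a deep one.

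At the other end, some rows stood above E2.5 at E3.5 and fell 4-fold or more below it by E4.5. Unnamed row 6003 had the highest E3.5 value, 0.81, and read -2.52, -2.20, -2.27 and -2.46 afterwards. The row annotated Spin1, a reader of methylated histones that is abundant in oocytes, read 0.51 at E3.5 and -3.86, -3.72, -3.76 and -3.46 later. The row annotated Myo19, a myosin of mitochondria, read 0.46, -3.27, -3.37, -3.40 and -3.02. These profiles are steps from near or above the reference to a flat low level.

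Unnamed row 7938 likewise went from 0.68 at E3.5 to between -3.47 and -3.11 in the later columns. Unnamed rows 2194, 4127 and 4899 stood at 0.62, 0.53 and 0.31 in the E3.5 column and had dropped to -2.08, -2.62 and -2.47 by E4.5. All 14 members above 0 at E3.5 fell by 2 or more on the log2 scale to E4.5, which their place above 0 and the rule fix together.

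The deepest members reached ratios far below the limit. By the late mean the lowest was unnamed row 7110, with -0.80 at E3.5 and -5.51, -5.97, -7.09 and -6.96 later. Unnamed row 3107 read -0.88 at E3.5 and -5.12, -5.52, -7.61 and -7.23 later, which at E6.0 is 150-fold below E2.5 in base 2. The row annotated Racgap1, a subunit of the centralspindlin complex that cells need to divide, read -1.19, -4.74, -5.30, -6.57 and -6.56. These 3 rows were low at E4.5 and lower still at E5.5 and E6.0.

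A second kind of deep row was flat from E4.5 on. The row annotated Pias2, a ligase that attaches SUMO to proteins, read -0.26 at E3.5 and -6.11, -5.98, -5.90 and -6.24 later. The row annotated Pdxdc1, a protein with a pyridoxal-dependent decarboxylase domain, read -0.19 and then -5.80, -6.28, -5.97 and -6.34. Their steps from E3.5 to E4.5, -5.86 and -5.61, were the largest among the members. Unnamed row 4307 read -0.38 at E3.5 and stayed between -5.71 and -5.11 later. These rows were within 2-fold of E2.5 at the blastocyst stage and at or below -5.11 at E4.5.

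The remaining deep rows were uneven. The row annotated Egln1, an oxygen-sensing hydroxylase that marks hypoxia-inducible factors for breakdown, read -0.73, -5.90, -5.65, -4.16 and -5.53, with a rise of 1.48 from E4.75 to E5.5 and a fall of 1.37 to E6.0. The row annotated Efl1, a GTPase of large ribosomal subunit maturation, read -0.33, -5.80, -8.63, -3.68 and -3.60. Its later values spanned 5.03, the widest of all members, and its E4.75 value was the lowest value of any member in any column. Without a replicate there is no way to tell whether that low point would be seen again.

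Over the later columns most members neither deepened nor recovered by 2-fold. In 81 of the 106 members (76.4%) the 4 later values lay within 1 of each other, near the share of all rows, 72.2%. In 40 members (37.7%) they lay within 0.5, where 23.8% of all rows did. The median change was 0.02 between the E4.5 and E4.75 columns, -0.13 in the step after them and -0.02 in the last step. Over all rows the same changes had medians of 0.16, -0.15 and 0.03. In the first of these steps 5 members fell by 1 or more and 1 rose, in the second 11 fell and 2 rose, and in the last 2 fell and none rose. The corresponding shares of all rows were 3.2% and 4.34%, then 4.28% and 5.65%, then 0.966% and 1.24%. After E4.5, the step with the most 2-fold falls among the members was thus the one from E4.75 to the egg cylinder of E5.5, with 10.4% of them.

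**Figure D3:**
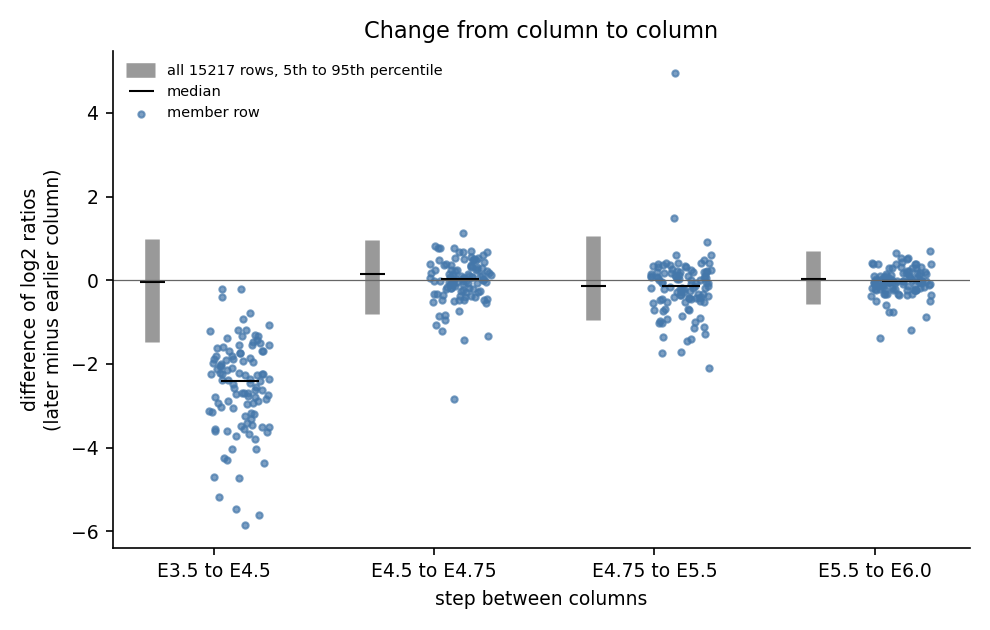
Differences of log2 ratios between consecutive columns, later minus earlier (vertical axis), for each of the 106 members (blue points, with a bar at the median) and for all 15217 rows (grey, 5th to 95th percentile, with a bar at the median). The members' medians are -2.40 from E3.5 to E4.5 and 0.02, -0.13 and -0.02 in the steps that follow.

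Between E4.5 and E6.0 the members' values moved little as a whole. The difference had a median of -0.13, and 66 of the 106 members (62.3%) were lower at E6.0 than at E4.5, where 47.4% of all rows were. The share depended on the limit: it was 51.0% of the 194 rows at or below -1.5 and 67.6% of the 37 at or below -3. By 1 or more, 12 members fell (11.3%) and 4 rose, where 4.68% of all rows fell and 9.67% rose. The lowest of the 4 later values was the E6.0 value in 38 members, that of E5.5 in 26, that of E4.75 in 18 and that of E4.5 in 24. Over all rows the shares in the same order were 28.7%, 20.5%, 17.3% and 33.5%. Each column has its own spread, and the stage of the lowest value depended on it. With the columns scaled to the same median absolute deviation, the medians of the same 106 members became -0.97, -2.73, -2.67, -3.36 and -2.96 from E3.5 to E6.0, and 87 of them were lowest at E5.5. After that scaling 51 members were 2-fold lower at E3.5, against 28 as deposited. With column medians subtracted, the scaling multiplied the E3.5 values of all rows by 1.44 and the E5.5 values by 1.09. It shrank the other columns. Both counts, 87 and 51, therefore follow in part from the scaling, and the shares of all rows after it were not counted. The fall between E3.5 and E4.5 remained with every scaling run, at 101 members by 1 or more as deposited and 76 after scaling. The order of the later columns did not.

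Among the rows that deepened most from E4.5 to E6.0, unnamed row 3107, described above, fell mainly in the step from E4.75 to E5.5 (-2.09). Others fell over more than 1 step. Unnamed row 3902 read -0.03 at E3.5 and then -2.66, -3.98, -4.90 and -5.22, a change of -2.56 from E4.5 to E6.0. The row annotated Calcoco2, a receptor that brings cargo to autophagy, read 0.35, -3.45, -4.19, -5.59 and -5.64, a change of -2.19. The row annotated Dpf2, a subunit of BAF chromatin remodelling complexes, read -0.18, -2.91, -4.34, -5.34 and -4.68. These rows had passed the limit at E4.5 and fell by at least 1.78 more by E6.0.

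A fall in every column relative to the one before was seen in 11 members (10.4%), where 0.907% of all rows had it; the rule favours such rows. Besides Calcoco2 and rows 3902 and 7279, these were unnamed rows 3776, 7002, 9535 and 11520 and the rows annotated Rpl22l1, Rnf115, Rsl24d1 and Gm11545. Of these, the row annotated Rpl22l1, a paralog of a ribosomal protein, read -1.31, -2.999, -3.41, -4.09 and -4.31. The row annotated Rsl24d1, a factor of ribosome assembly, read -0.96, -2.02, -2.48, -2.55 and -2.77. Labels given only for this pattern were chosen after their values were seen.

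In 4 members the loss eased by 1 or more between E4.5 and E6.0. The row annotated Efl1, described above, changed most, by 2.20. The row annotated Hmgxb4, a protein with an HMG box, read -1.39 at E3.5 and -4.02, -3.33, -2.73 and -2.79 later. The row annotated Slc25a26, the mitochondrial carrier of the methyl donor S-adenosylmethionine, read -0.18, -4.23, -3.74, -3.13 and -3.16. Unnamed row 6809 read -0.05 and then -3.55, -3.33, -2.42 and -2.45. All of these were still more than 4-fold below E2.5 at E6.0, as the rule requires.

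Smaller upward changes followed in the row annotated Atp5a1, the alpha subunit of the mitochondrial ATP synthase, which read -0.24, -4.53, -4.05, -4.02 and -3.62. Unnamed row 4853 read -0.16, -3.71, -2.94, -2.90 and -2.91. Both rows were lowest at E4.5.

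The limit falls in a thinning tail, not in a gap. Just inside it were the row annotated Azin1, which protects ornithine decarboxylase from breakdown (highest later value -2.002, at E5.5), unnamed rows 9535 and 3703 (-2.002 and -2.003, their E4.5 values), the row annotated Pet100, an assembly factor of cytochrome c oxidase (-2.01, at E5.5), and unnamed row 3677 (-2.01, at E4.75). Just outside it were unnamed rows 8509, 3262, 8679 and 13393, with highest later values of -1.998, -1.996, -1.991 and -1.977, and the row annotated Mybl2, a transcription factor of the cell cycle, with -1.97 at E5.5. The row annotated Mybl2 read -0.41, -3.01, -2.78, -1.97 and -2.05. A further 36 rows were at or below -2 in 3 of the 4 later columns. The members outside the rule for naming, 70 in number, ran from -1.36 to 0.26 at E3.5 (median -0.73). Their values ran from -4.56 to -2.02 at E4.5 and from -5.00 to -2.07 at E6.0 (median -3.14).

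Of the 58 symbols, 25 had other rows on the array, 36 rows in all, and the later medians of these rows lay near 0. No 2 members shared a symbol, so none of the 36 was at or below -2 in all 4 later columns. None was at or below -1 in all 4 either. Over all rows the shares were 0.697% and 2.65%. At such shares 36 rows would hold few or none, so these counts of 0 say little. The medians of the 36 rows in the later columns were 0.01, 0.08, -0.01 and -0.11 in turn, close to those of all rows. The 4 other rows annotated Spin1 read -0.23, -0.90, 0.14 and -0.70 at E4.5 and -0.51, -0.32, -0.48 and -0.59 at E6.0, against -3.86 and -3.46 in the member. The other row annotated Racgap1 read 0.16 at E6.0 against -6.56, and the other rows annotated Pias2 and Pdxdc1 read -0.10 and -0.21 against -6.24 and -6.34.

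The nearest to a shared fall was the other row annotated Cnot7, which read -0.41, -0.82, -0.56, -1.47 and -1.36. The other row annotated Rsl24d1 read -0.92, -0.60, -0.60, -0.64 and -1.08. By contrast the other row annotated Drosha, the nuclease that starts microRNA processing, rose to 1.74 at E6.0 where the member read -3.30. Of the 36 rows, 7 were below 0 in all later columns and 7 were above 0 in all of them. At or below -1 in at least 1 later column were 6 of the 36, and 7 were at or above 1 in at least 1. The shares of all rows were not counted for this. The lowest later value among the 36 was -1.47, in the row annotated Cnot7. The depth of a member's loss was thus not matched in the other rows of its label, but smaller falls were seen in some. For the 33 symbols without another row no such comparison could be made.

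**Figure D4:**
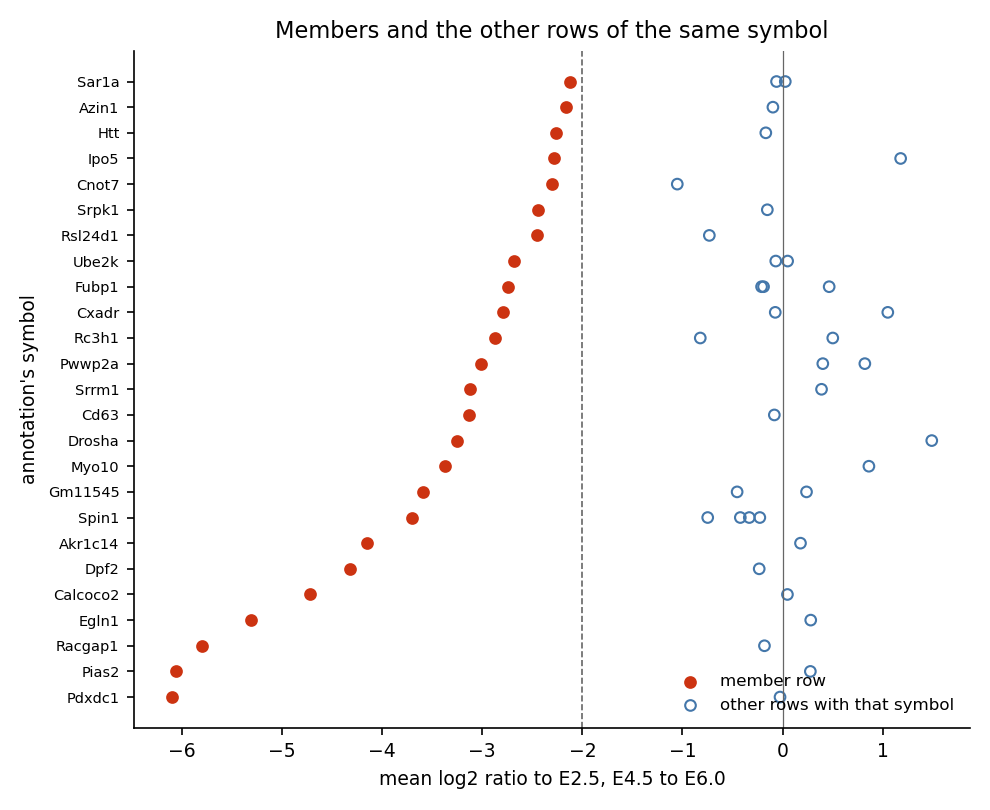
Mean log2 ratio to E2.5 over E4.5 to E6.0 (horizontal axis) for the 25 symbols (vertical axis) that have a member (red) and other rows (open blue). The members lie below -2 and none of the 36 other rows was at or below -1 in all 4 later columns.

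The gene lists examined held too few members for their frequency to be set against that of the whole table. The lists took rows with 1 symbol, of which 58 of 8062 were members. The members annotated Racgap1, Ube2c, Troap, Pet100 and Rpl22l1 were in none of the lists. Of 377 rows whose symbol was in any of 10 lists, 3 were members (0.796%, against 0.697% of all rows): Spin1 among 57 rows of oocyte and cleavage-stage genes, Cenpu among 47 rows of cell cycle genes and Atp5a1 among 34 rows of mitochondrial respiration genes. No member was found among 20 rows of naive pluripotency and inner cell mass genes, 23 of trophectoderm, 27 of primitive and visceral endoderm, 12 of post-implantation epiblast, 24 of maternal uterus, decidua and blood, 102 of the cytosolic ribosome or 36 of the proteasome. At the share of all rows, a list of 102 rows or fewer would hold less than 1 member, so a count of 0 in a list says nothing about it. The medians of these 10 lists ran from -0.14 to 0.24 at E6.0. The whole-embryo label could not be checked against cell type markers, because names are not borne out by the rows.

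The members were unevenly placed in the table, although most lay outside the stretch where they were most frequent. Row numbers 7001 to 9000 held 40 of the 106 members (37.7%), or 2.0% of the 1996 rows there, and the 13221 other rows held 66 members (62.3%), or 0.499% of those rows. Of these, 26 lay in rows 7001 to 8000 (2.61%) and 14 in rows 8001 to 9000 (1.4%). In bins of 500 rows the fullest was the one from 7501 to 8000, with 15 members, or 3.0% of its rows. There was no member in rows 1 to 1000 and none in rows 12001 to 13000, and rows 11001 to 14000 held 2 in all. No members stood in neighbouring rows, and the median gap between a member and the next was 62 rows. The accessions in the annotation gave a like picture: 34 of 2545 rows with accessions that begin with AU were members (1.34%), 9 of 1004 that begin with C (0.896%), 17 of 4583 that begin with AW (0.371%) and 0 of 298 that begin with AA.

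The values of that stretch as a whole were a little low. The median of its 1996 rows was -0.10 at E3.5 and -0.09, -0.03, -0.13 and -0.17 later, against 0.01 and then -0.02, 0.10, -0.02 and 0.01 in the other rows. This offset is small beside the members' ratios, and its part in the count was not tested. Rows raised at least 4-fold in all 4 later columns, 25 in the whole table (0.164%), had 1 in that stretch. In the later columns low rows in general were more frequent there, not the members alone. With the members left out, 1.64%, 1.28%, 0.971% and 1.18% of the 1956 rows of the stretch were at or below -2 in the later columns in turn, against 0.988%, 0.958%, 0.525% and 0.699% of the 13155 other rows. At E3.5 this was not so: 0 of those 1956 rows were at or below -2, against 31 of the 13155 (0.236%). Of the 17 rows that were low at E4.5 and E4.75 but near E2.5 afterwards, 4 lay in the stretch. Outside rows 7001 to 9000 the 66 members had a median of -0.50 at E3.5, and 15 of them were 2-fold lower there. Both members past 4-fold at E3.5 lay inside the stretch. The bins of row numbers were chosen after the data had been seen.

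**Figure D5:**
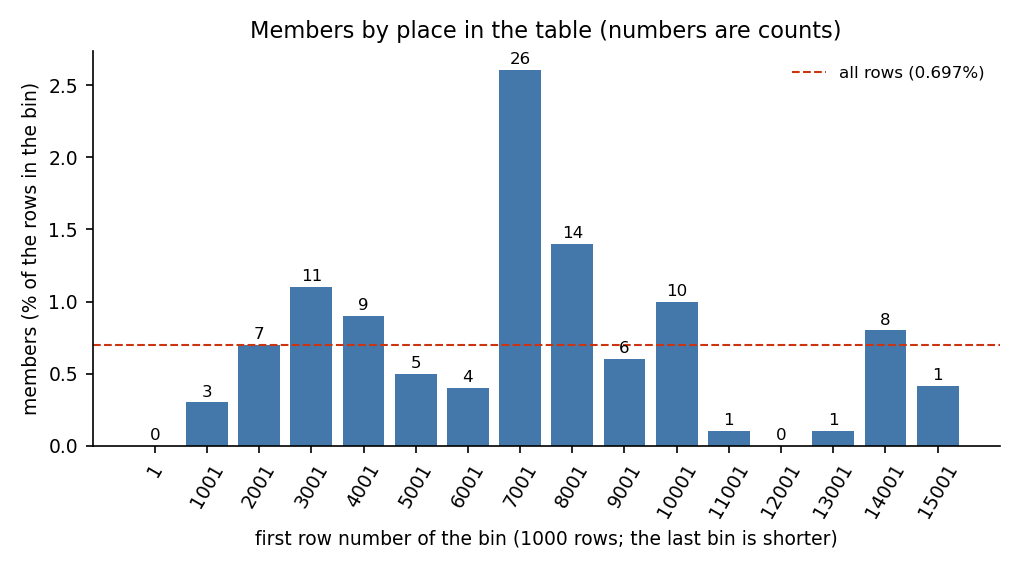
Members as a percentage of the rows in each bin of 1000 row numbers (vertical axis), by place in the table (horizontal axis), with the number of members over each bar and the share over all rows, 0.697%, as a dashed line. The bins that start at rows 7001 and 8001 hold 26 and 14 members.

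The most like set of rows was low at E4.5 and E4.75 but back near E2.5 later: 17 rows at or below -2 in those columns and above -1 at E5.5 and E6.0 (0.112% of all rows). At E3.5 their median was -0.27, and 0 of 17 were 2-fold lower, against a median of -0.68 and 28 of 106 in the members. With so few rows, no replicate and a shared reference, this difference was not tested. At E4.5 the medians of both sets were alike, -3.04 in the 17 rows and -3.07 in the members. At E4.75 they were -4.66 and -3.10. Of the 268 rows at or below -2 at E4.5, 106 were thus still there in each of the later columns. Above -1 at both E5.5 and E6.0 were 39 of the 268: the 17 above and 22 that had already risen past -2 at E4.75. The other 123 had neither pattern.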

How the data were processed

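The authors deposited 1 table of 15247 rows with 1 column of log ratios per stage, taken as log2 ratios with the later stage on top and E2.5 below. The direction comes from the sample titles, and per the labels the named stage carried Cy3 and E2.5 carried Cy5. RNA was amplified by PCR in a way adapted to each stage, per the labels' protocols, so amplification and stage cannot be told apart. Log base, background correction and normalization: not given in the sources used here. Intensities were not used, which leaves the signal behind each ratio open, and precision is limited by the number of arrays. The titles give E4.75 and E6.0 where the protocols give 4.8 and 6.5 days; the titles were used.

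Rows with a missing value (30) were left out, and none of them met the limit in the later columns. Symbols came from the platform annotation. Counts, medians and differences of columns were computed in Python 3.11.15 with pandas 2.3.3; the selection was tested on simulated data. The members and the gene lists were chosen with earlier results of these data known. The rows named by rule are the 10 lowest by the mean of the later columns and the 8 lowest and 8 highest at E3.5. Added to these are the 6 that fell and the 6 that rose most from E4.5 to E6.0. The rule also takes the 5 nearest to the limit on each side, 36 members in all, and every other row of a member's symbol. Some further members are named for a count, a pattern or their other rows, after their values were seen. Alternatives changed the limit, the scaling, the columns in the rule, the rows admitted and the log base.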

Additional observations from a re-analysis of the deposited data

How the results depend on the processing

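The number of rows, 106 in the main setting, followed the limit by construction: 194 at -1.5, 68 at -2.5 and 37 at -3. Leaving 1 later column out of the rule gave 111 to 119. Subtracting column medians gave 104, taking the 194 lowest rows of each later column gave 85, and admitting rows without an E3.5 value gave 106.

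Lower at E6.0 than at E4.5 were 99 of 194 rows at -1.5 (51.0%), 43 of 68 at -2.5 (63.2%) and 25 of 37 at -3 (67.6%), against 47.4% of all rows. At -3, 11 were 2-fold lower at E3.5. Taking the later columns in the order of the stages, the lowest value fell there in 62, 29, 43 and 60 rows at -1.5, in 15, 11, 17 and 25 at -2.5, and in 7, 7, 10 and 13 at -3. With columns scaled to the same spread, 81 rows met the limit, 5 were 4-fold lower at E3.5, the E3.5 median was -0.96, and the lowest value fell in 7, 1, 67 and 6 rows. Scaling stretches E3.5 and E5.5 and shrinks the other columns, so this shift follows by construction. The share of all rows 4-fold lower at E3.5 after scaling was not counted.

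With values read as natural logarithms, 230 rows were 4-fold lower. Of these, 88 were 2-fold and 13 were 4-fold lower at E3.5 (median -0.80 after conversion to log2). The conversion enlarges every ratio, so more of all rows pass these limits at E3.5 too, and their share was not counted. Of the 230, 115 were lower at E6.0 than at E4.5, and the lowest value fell in 73, 35, 56 and 66. Among rows with 1 symbol the numbers were 58, 16, 1, 37 and 13, 11, 12 and 22 in the same order. Outside rows 7001 to 9000, chosen after seeing the data, they were 66, 15, 0, 40 and 16, 11, 15 and 24, with a median of -0.50 at E3.5. No median at E3.5 changed sign. No paired analysis was possible because there is 1 column per stage. How far signal over background limits the counts is unknown, as no intensities were analysed here.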

Other observations

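The 36 rows that met the limit in 3 of the 4 later columns missed it most often at E4.75 (13 rows, median -1.69 there) and at E6.0 (12 rows, median -1.85), and less often at E4.5 (6 rows, median -1.72) and E5.5 (5 rows, median -1.97). The highest value that kept such a row out was -0.68, at E5.5. Only 116 rows met the limit in exactly 2 later columns and 176 in 1, so more rows were low in all 4 columns than in 3. The columns share the E2.5 stage, and its part in this count was not tested.

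Rows raised at least 4-fold in all 4 later columns numbered 25, against 106 lowered. Their median was 1.23 at E3.5, and then 2.64, 3.63, 3.02 and 3.24 in the order of the stages. At E3.5 the raised rows thus stood further from E2.5 than the lowered rows did (-0.68). Their highest median was at E4.75, the column that also had the highest median (0.08) and widest spread (SD 0.87) over all rows. The later values were used to choose these rows, and the order of their columns was not tried with other scalings. No test of the difference at E3.5 was possible with 1 column per stage.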
